A study of Mus musculus with 6 samples.

Results

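Genes known as targets of the tumour suppressor p53 were followed in mouse B cells with and without PP2Aa, the scaffold on which the other subunits of protein phosphatase 2A (PP2A) assemble. The members were 33 genes listed as p53 targets or partners. A row of the deposited expression table was taken where its name equalled a member's symbol, a rule that uses no measured value, and this gave 32 genes of the 22788 in the table. Tigar had no row under that symbol in the table used here. The control group held 3 wild-type (WT) libraries of the C57BL/6 background, for which the labels give no Cre or floxed allele. The other group held 3 PP2Aa-deficient libraries on the same background, whose genotype combines a Cre recombinase with Ppp2r1a flox/flox. All mice were 8 weeks old. The labels give the spleen as tissue but describe a peritoneal wash with no sort of B cells, and no treatment with a DNA-damaging agent is given for either group. The labels do not state whether libraries are separate mice. The p-values therefore cover only the spread between these libraries, which may be technical in part. In bulk samples of this kind, fewer cells of a type and less RNA per cell cannot be told apart.

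The p53 protein is a transcription factor that is kept low by Mdm2 and Mdm4 and is released after DNA damage and other stress. It then raises genes that stop the cell cycle, kill the cell, repair DNA or adjust metabolism, and also genes that shut p53 off again, so that its activity is held in a loop. PP2A meets this loop at known points: cyclin G1, itself a target, brings PP2A to Mdm2, and a PP2A holoenzyme with a B56 subunit removes a phosphate from p53. Both act on protein, which messenger RNA levels do not show. In B cells the pathway is known for guarding against the DNA breaks of receptor gene rearrangement and antibody diversification.

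The p53 response element is a pair of matching blocks of 10 bases each, with a C and a G in the core of each block. It was searched for in RefSeq windows of 300 bases around gene starts (250 before and 50 after, build GRCm38.p6), allowing up to 13 bases between the blocks and at most 2 deviating bases over both, none of them at the core C and G. Its pattern reads the same on both strands. Of the members, 25 had a window and 7 of them (28.0%) held such a pair, against 4.71% of the 27025 genes with a RefSeq window. Where a window held several pairs, the one with the fewest bases between its blocks was taken, then the one with the fewest deviating bases. The members were chosen as known targets, so this share describes the choice of members and says nothing of the B cells. The pairs are shown because p53 is known to bind such elements, and the 7 genes that held one had values on both sides of WT. Capitals mark the paired blocks.
Cdkn1a, chr17:29090923-29090952, plus strand: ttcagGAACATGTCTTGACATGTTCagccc
Ccng1, chr11:40755457-40755486, minus strand: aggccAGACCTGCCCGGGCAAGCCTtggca
Rps27l, chr9:66946291-66946320, plus strand: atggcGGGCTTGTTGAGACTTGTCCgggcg
Gtse1, chr15:85859940-85859969, plus strand: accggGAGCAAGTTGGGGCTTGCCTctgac
Ckap2, chr8:22185998-22186027, minus strand: tctgaAGACATGTCCTGACTTGTCAagcct
Sesn1, chr10:41887248-41887280, plus strand: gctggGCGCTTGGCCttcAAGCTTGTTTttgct
Gadd45a, chr6:67037433-67037468, minus strand: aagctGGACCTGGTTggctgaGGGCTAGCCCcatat
In Cdkn1a, Ccng1, Rps27l, Gtse1 and Ckap2 the blocks touched, and in Sesn1 and Gadd45a they lay 3 and 6 bases apart. The pair in Cdkn1a began 51 bases before the first of the 2 start sites listed for the gene, and that in Ccng1 began 195 bases before its start. Between PP2Aa-deficient and WT cells, 4 of these 7 genes lay below WT and 3 above.

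Values were in FPKM, which divides the fragments of a gene by its transcript length and by the depth of its library. Depth was low, at about 2120000 to 3810000 fragments per library as estimated from the steps of low values, and 9229 to 9332 genes reached 1 FPKM. Of the B cell markers, Cd79a ran from 1519 to 1681 FPKM in WT and from 1573 to 1906 in PP2Aa-deficient libraries, and Ms4a1 from 276 to 371 and from 376 to 390.5. Ppp2r1a, the deleted gene, measured 85.7, 85.4 and 83.7 FPKM in WT against 31.3, 56.2 and 28.2 in deficient replicates 1 to 3. Replicate 2 thus kept 66.2% of the WT mean, and the other deficient libraries 36.9% and 33.2%. The log2 change was -1.18 (limma adjusted p = 0.168, and 0.00555 without deficient replicate 2). Xist, which marks female cells, was high in replicate 1 of each group (65.2 and 84.5 FPKM) and at most 0.116 FPKM elsewhere. Each group thus mixed libraries of both kinds, so its libraries did not all come from the same mouse.

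Most of the pathway was present in these cells, at levels that spanned a wide range per transcript length. By the median over the 6 libraries, the highest members were Rps27l at 95.7 FPKM, Btg2 at 95.2, Plk2 at 85.6, Pmaip1 at 76.9, Sesn1 at 56.8 and Trp53 itself at 56.4. In 3 libraries even Rn45s, an abundant ribosomal RNA precursor, had a value of 0, so a listed 0 may be an estimate that failed. Eda2r, an ectodysplasin receptor, was listed at 0 in all 6 libraries and Phlda3, a repressor of AKT signalling, in 4, with at most 0.732 FPKM in WT replicate 1. Perp, a membrane protein of epithelia and dying cells, did not exceed 0.906 FPKM, Zmat3 did not exceed 0.910, and Polk, a translesion DNA polymerase, passed 1 FPKM in 2 libraries, with a range of 0.733 to 1.42. These 5 members stayed below the filter of 1 FPKM in at least 3 libraries, and the other 27 were tested.

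**Figure D1:**
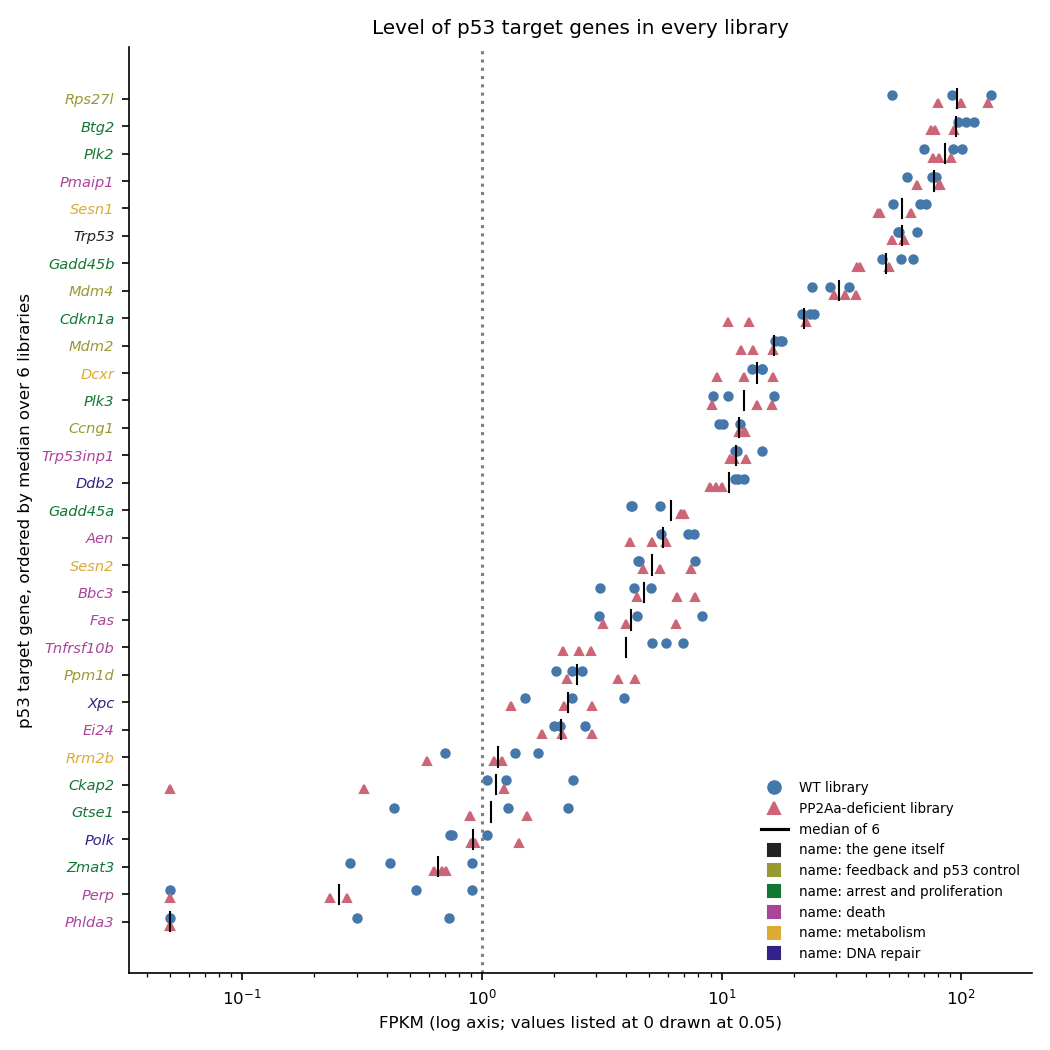
FPKM of each p53 target gene on a log axis, one row per gene ordered by its median over 6 libraries (black tick), with circles for WT and triangles for PP2Aa-deficient libraries and the colour of the name giving the role. Medians run from Phlda3, listed at 0 in 4 libraries, to Rps27l at 95.7 FPKM. Circles and triangles of most genes interleave, while those of Tnfrsf10b, Gadd45a, Btg2, Mdm2 and Ddb2 do not overlap. Eda2r, listed at 0 throughout, is not drawn.

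No member passed the test over all genes. With limma on log2(FPKM + 1) and Benjamini-Hochberg adjustment over 9425 genes, 0 of 27 members had an adjusted p under 0.05, where 0.0318% of all tested genes did. Before adjustment, 5 members (18.5%) had a limma p under 0.05, against 9.47% of all tested genes. These were Tnfrsf10b, Btg2, Cdkn1a and Gadd45b with lower values in PP2Aa-deficient cells (4.41% of all genes met this in that direction) and Gadd45a with higher values (5.06%). The groups did not overlap for Tnfrsf10b, Btg2, Mdm2 and Ddb2 on the lower side (7.4% of all genes) and for Gadd45a on the higher side (7.7%), 5 of 27 in all (18.5%), against 15.1% of all tested genes, which is near the background. Of the 27 members 18 lay below WT (66.7%, against 51.1% of all tested genes), and their median log2 change was -0.10 against -0.01 over all genes. No member's change exceeded 1 on the log2(FPKM + 1) scale, while Tnfrsf10b reached -1.09 and -1.21 with pseudocounts of 0.5 and 0.1. Single libraries weighed on these figures: at an unadjusted limma p under 0.05, 2 members were lower and 0 higher without WT replicate 3, and 1 was lower and 2 higher without deficient replicate 3. The median log2 change was -0.16 without WT replicate 1 and -0.027 without WT replicate 3. A rank or permutation test of 3 against 3 libraries cannot give a two-sided p under 0.1 for a single gene.

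**Figure D2:**
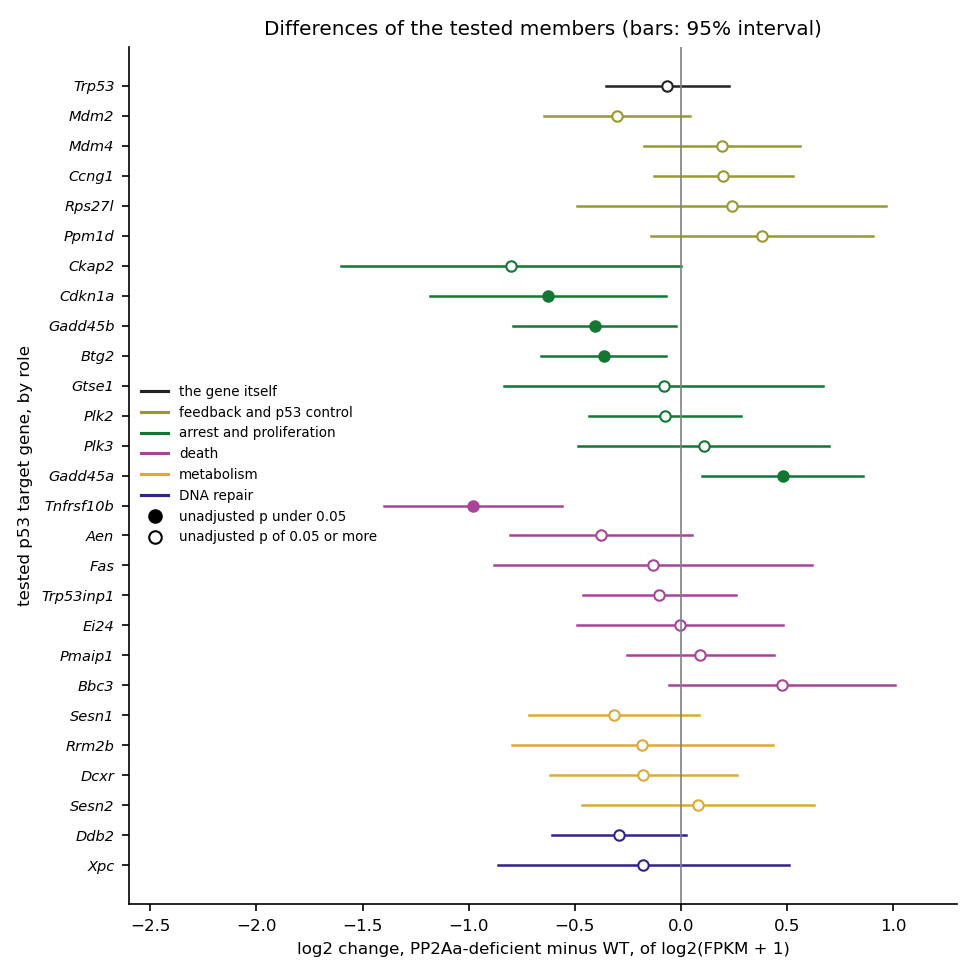
Log2 change of log2(FPKM + 1), PP2Aa-deficient minus WT, for each of the 27 tested members grouped by role, with bars for the 95% interval of the limma fit and filled circles for an unadjusted p under 0.05. Filled circles mark Tnfrsf10b at -0.98, Cdkn1a at -0.63, Gadd45b at -0.41, Btg2 at -0.36 and Gadd45a at 0.48, and Trp53 lies at -0.06.

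Trp53 messenger RNA did not differ between the groups beyond the spread of the libraries. It measured 54.5, 55.1 and 65.3 FPKM in WT against 57.8, 57.6 and 51.4 in PP2Aa-deficient libraries. The groups overlapped, and WT replicate 3 was the highest of the 6. The log2 change was -0.06 (SE 0.13, 95% interval -0.35 to 0.23; limma adjusted p = 0.915), and changes within that interval could not be resolved.

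Genes that feed back on p53 did not move as 1 group, with 1 of 5 members below WT and 4 above. Mdm2, the ubiquitin ligase that marks p53 for destruction and is its best known target, measured 17.8, 16.7 and 17.5 FPKM in WT against 13.5, 16.4 and 12.1 in PP2Aa-deficient libraries. Every deficient library lay below every WT library, but replicate 2 only just, at 94.3% of the WT mean, and replicate 3 was lowest at 69.8%. This gave a log2 change of -0.30 (SE 0.15; limma adjusted p = 0.572).

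Its partner Mdm4, which binds and silences p53, ran from 23.9 to 33.9 FPKM in WT and from 29.3 to 36.5 in PP2Aa-deficient libraries (log2 change 0.19, SE 0.16). Ppm1d, the phosphatase Wip1 that removes damage-dependent phosphates from p53 and its kinases, measured 2.60, 2.04 and 2.38 FPKM in WT against 3.71, 4.34 and 2.27 in PP2Aa-deficient libraries. Deficient replicates 1 and 2 lay above all WT libraries and replicate 3 within them, for a log2 change of 0.38 (SE 0.23; limma adjusted p = 0.66). Ccng1, the cyclin G1 that recruits PP2A to Mdm2, measured 9.79, 11.9 and 10.1 FPKM in WT against 11.8, 12.4 and 12.6 in PP2Aa-deficient libraries. Only WT replicate 2 reached the deficient range, and the log2 change was 0.20 (SE 0.14; limma adjusted p = 0.729). Rps27l, a ribosomal protein-like gene that acts on Mdm2, varied 2.60-fold over the libraries (51.2 to 133 FPKM in WT, 79.7 to 129 in PP2Aa-deficient), with both extremes in WT.

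Arrest genes held 4 of the 5 members with an unadjusted limma p under 0.05. That is 4 of the 8 tested in this role, against 9.47% of all tested genes. The roles were set with earlier results of these data known, so this share is not an independent result. The arrest genes lay on both sides of WT, with 6 of 8 below it and 2 above, where 51.1% of all tested genes were below. Cdkn1a, the cyclin-dependent kinase inhibitor p21 and the main arrest gene of the pathway, measured 21.6, 24.3 and 23.5 FPKM in WT against 12.98, 22.5 and 10.6 in PP2Aa-deficient libraries. Replicates 1 and 3 of the deficient group were at 56.1% and 45.9% of the WT mean, while replicate 2 was at 97.3% and within the WT range. The group means were 23.1 ± 1.37 and 15.4 ± 6.30 FPKM (SD, n = 3), a log2 change of -0.63 (SE 0.24) with limma adjusted p = 0.472 and unadjusted p of 0.0315.

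The order of the deficient libraries in Cdkn1a was that of Ppp2r1a, highest in replicate 2 and lowest in replicate 3. Cdkn1a is also the only member that RefSeq (GRCm38.p6) places on the chromosome of Ppp2r1a, 17, where the MHC class II gene H2-Eb1 stood at 199, 1313 and 174 FPKM in deficient replicates 1 to 3 against 1478 to 1575 in WT. Among other genes of chromosome 17 in the lists used here, Tap1 kept that order and Daxx, Dusp1, Polh and Ier3 did not. Tap1 measured 35.9, 37.0 and 29.7 FPKM in deficient replicates 1 to 3 against 34.6 to 48.7 in WT. In deficient replicates 1 to 3 Daxx measured 8.77, 8.55 and 9.87 FPKM and Dusp1 306, 287 and 296. Polh measured 1.25, 0.761 and 0.648 FPKM and Ier3 1.88, 1.14 and 0.962, so that replicate 2 was highest in none of these 4. Polh rested on about 5 to 17 fragments per library and Ier3 on about 3 to 5, too few to order 3 libraries. H2-Eb1 is not in those lists and was named with its values known. The order of Ppp2r1a was not confined to chromosome 17, since Btg2, Mdm2 and Aen, on chromosomes 1, 10 and 7, had it too. Its share over all genes was not taken. Whether the linkage to the floxed gene has a part in the values of Cdkn1a was not tested. Without deficient replicate 2 the log2 change of Cdkn1a was -0.92 (limma unadjusted p = 0.000548, adjusted p = 0.138), and without deficient replicate 3 it was -0.41 (unadjusted p = 0.115, adjusted p = 0.73). In neither case did it pass over all genes.

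Btg2, an antiproliferative cofactor of messenger RNA deadenylation that p53 induces, measured 97.3, 105 and 113 FPKM in WT against 77.4, 93.0 and 74.6 in PP2Aa-deficient libraries. The groups did not overlap, and replicate 2 was again the deficient library nearest to WT, at 88.5% of the WT mean. The log2 change was -0.36 (SE 0.13; limma adjusted p = 0.431). Gadd45b, a stress protein that activates p38 and JNK signalling, measured 63.1, 46.7 and 55.9 FPKM in WT against 50.1, 37.7 and 36.7 in PP2Aa-deficient libraries. Here replicate 1 of the deficient group lay within the WT range and replicates 2 and 3 below it (log2 change -0.41, SE 0.17; limma adjusted p = 0.504).

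Its relative Gadd45a, the family member best known as a p53 target, lay on the other side. It measured 4.18, 5.54 and 4.21 FPKM in WT against 6.76, 6.75 and 6.95 in PP2Aa-deficient libraries, so all 3 deficient libraries were above all WT libraries, at 145% to 149.6% of the WT mean. The log2 change was 0.48 (SE 0.17; limma adjusted p = 0.42), and the values rested on only about 6 to 15 fragments per library. E230016M11Rik, a gene whose span overlaps that of Gadd45a in RefSeq, measured 0.476 to 0.662 FPKM in WT against 0.899 to 1.78 in PP2Aa-deficient libraries. The use of strand is not given in the sources used here, so reads from the overlap cannot be assigned to one gene or the other. The same holds for Mdm4, Plk3, Ei24, Rrm2b, Xpc and Ddb2, whose spans overlap other genes.

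Among the remaining arrest and growth genes, the polo-like kinase genes Plk2 and Plk3 overlapped between groups, with log2 changes of -0.08 and 0.11. The mitotic genes Gtse1, which holds p53 in check in G2, and Ckap2, a spindle protein, were near 1 FPKM in most libraries. Ckap2 was at 2.39, 1.25 and 1.048 FPKM in WT against 1.24, 0 and 0.321 in PP2Aa-deficient libraries, on at most 13 fragments (log2 change -0.80, SE 0.35; limma adjusted p = 0.527). Markers of dividing cells were low throughout, 12 genes that summed to 33.5 to 65.2 FPKM in WT against 26.9 to 54.6 in PP2Aa-deficient libraries, with 7 of 10 tested below WT. Their part in the values of Gtse1 and Ckap2 was not tested.

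Of the 7 tested death genes, 5 lay below WT (71.4%, against 51.1% of all tested genes) and 2 above. Tnfrsf10b, the death receptor for the ligand TRAIL, had the largest change of the tested members on the log2(FPKM + 1) scale, which understates that of low genes such as Ckap2. It measured 5.13, 5.84 and 6.91 FPKM in WT against 2.84, 2.55 and 2.17 in PP2Aa-deficient libraries. The highest deficient library lay well below the lowest WT library, and the deficient replicates were at 47.7%, 42.8% and 36.5% of the WT mean, with replicate 2 in the middle, unlike for Cdkn1a. The log2 change was -0.98 (SE 0.18, 95% interval -1.40 to -0.56). The unadjusted limma p was 0.000558, rank 33 among 9425 genes, and the adjusted p was 0.146. The values rested on about 17 to 71 fragments per library.

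The groups overlapped for the other receptor, Fas (CD95). It ran from 3.07 to 8.28 FPKM in WT and from 3.22 to 6.44 in PP2Aa-deficient libraries, with WT replicate 1 highest, and its log2 change was -0.13 (SE 0.33). The BH3-only genes, whose products release the mitochondrial death pathway, lay above WT without passing the test. Bbc3 (Puma) measured 5.06, 4.32 and 3.10 FPKM in WT against 7.73, 6.51 and 4.43 in PP2Aa-deficient libraries, where replicates 1 and 2 lay above every WT library and replicate 3 within them (log2 change 0.48, SE 0.23; limma adjusted p = 0.566). Pmaip1 (Noxa), much more abundant, ran from 59.4 to 78.1 FPKM in WT and from 65.2 to 81.3 in PP2Aa-deficient libraries, a log2 change of 0.09 (95% interval -0.25 to 0.44).

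Aen, an apoptosis-enhancing nuclease, measured 7.23, 5.59 and 7.70 FPKM in WT against 5.12, 5.84 and 4.13 in PP2Aa-deficient libraries. Only replicate 2 of the deficient group reached the WT range (log2 change -0.38, SE 0.19; limma adjusted p = 0.572). Trp53inp1, an autophagy and death factor that acts with p53, had a log2 change of -0.10, and Ei24, a protein of the endoplasmic reticulum, one of -0.004.

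**Figure D3:**
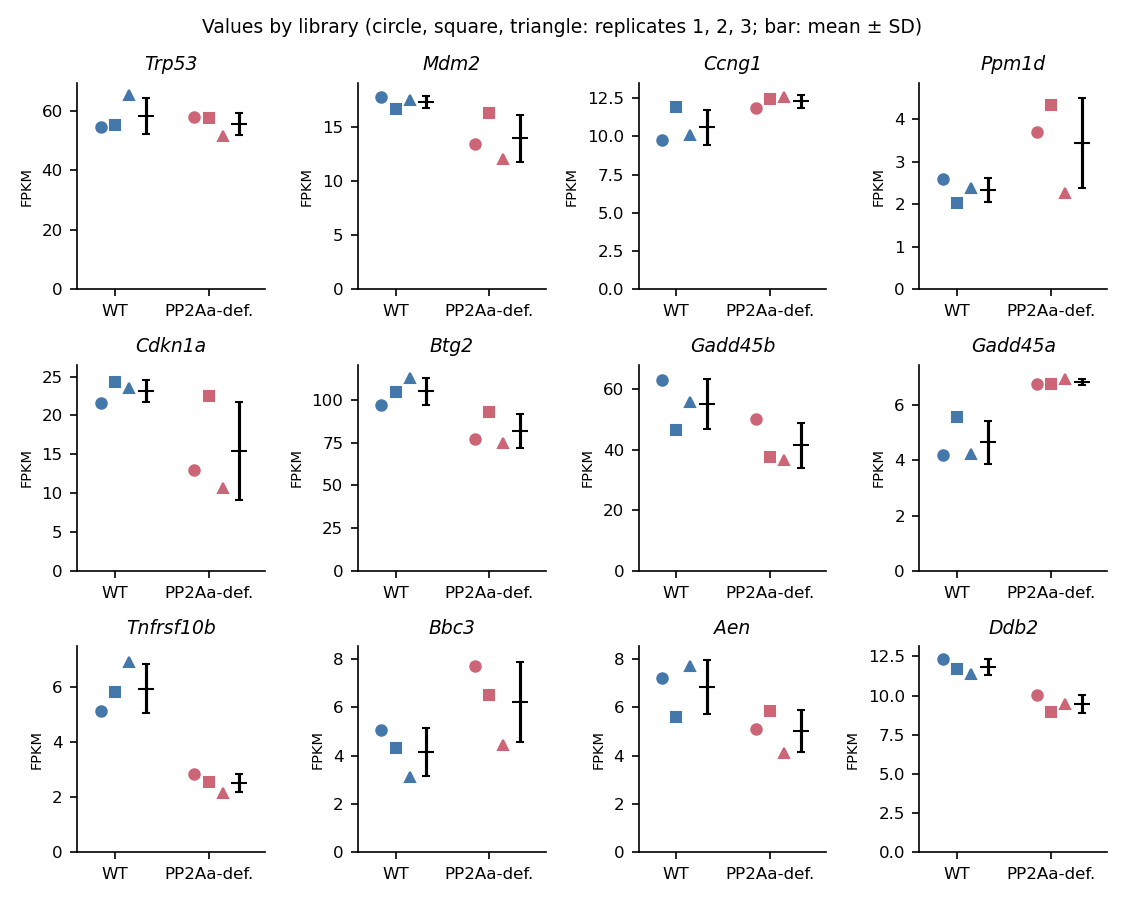
FPKM of 12 members in each library, with circle, square and triangle for replicates 1, 2 and 3 and a bar for the mean ± SD of each group of 3; every axis starts at 0. The groups do not overlap for Tnfrsf10b, Gadd45a, Btg2, Ddb2 and Mdm2. In Mdm2 they miss each other only just, with the highest deficient library at 16.4 FPKM and the lowest WT library at 16.7. For Cdkn1a the deficient square at 22.5 FPKM lies among the WT libraries while the circle and triangle lie at 12.98 and 10.6.

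Metabolic targets overlapped between the groups in all 4 tested members, 3 of them below WT (75.0%, against 51.1% of all tested genes). Sesn1, a sestrin that restrains mTORC1, measured 51.8, 71.3 and 67.5 FPKM in WT against 61.8, 44.9 and 46.0 in PP2Aa-deficient libraries, with deficient replicate 1 within the WT range and the other deficient libraries below it (log2 change -0.32, SE 0.17; limma adjusted p = 0.626). Its relative Sesn2 ran from 4.49 to 7.72 FPKM in WT and from 4.70 to 7.43 in PP2Aa-deficient libraries, at a log2 change of 0.08. Per transcript length Sesn1 was the more abundant of the pair in every library. Dcxr, a xylulose reductase, measured 14.8, 14.8 and 13.5 FPKM in WT against 16.4, 9.59 and 12.5 in PP2Aa-deficient libraries, which lay on both sides of WT. Rrm2b, the p53-induced subunit of ribonucleotide reductase, stayed at 0.699 to 1.71 and 0.589 to 1.22 FPKM on at most 6 fragments. RefSeq lists 9630033F20Rik as an older name of Tigar, a fructose bisphosphatase, and the row of that name held 0.377, 1.36 and 1.12 FPKM in WT against 1.27, 0.386 and 1.64 in PP2Aa-deficient libraries.

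Of the repair genes, Ddb2 and Xpc serve the nucleotide excision repair that recognises ultraviolet lesions. Ddb2, the damage sensor, measured 12.4, 11.7 and 11.4 FPKM in WT against 10.04, 8.93 and 9.43 in PP2Aa-deficient libraries. The groups did not overlap and each was tight, at 11.8 ± 0.501 and 9.46 ± 0.556 FPKM (SD, n = 3), which put the deficient cells at 80.2% of WT. For Ddb2 the log2 change was -0.29 (SE 0.14; limma adjusted p = 0.551). Xpc measured 1.52, 2.38 and 3.91 FPKM in WT against 2.88, 2.199 and 1.32 in PP2Aa-deficient libraries. The lowest library of all was deficient and the highest WT, with the rest interleaved, and the log2 change was -0.18 (SE 0.30).

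The deficient libraries did not keep 1 order across the pathway. Replicate 2, with the most Ppp2r1a left, was the deficient library nearest to the WT mean in 11 of the 27 tested members (40.7%, against 34.0% of all tested genes), replicate 1 in 12 (44.4%, against 32.8%) and replicate 3 in 4 (14.8%, against 33.2%). Cdkn1a, Btg2, Mdm2 and Aen had replicate 2 nearest and replicate 3 farthest. Gadd45b and Sesn1 had replicate 1 nearest. In Gadd45a the 3 deficient libraries differed from each other by less than from any WT library.

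**Figure D4:**
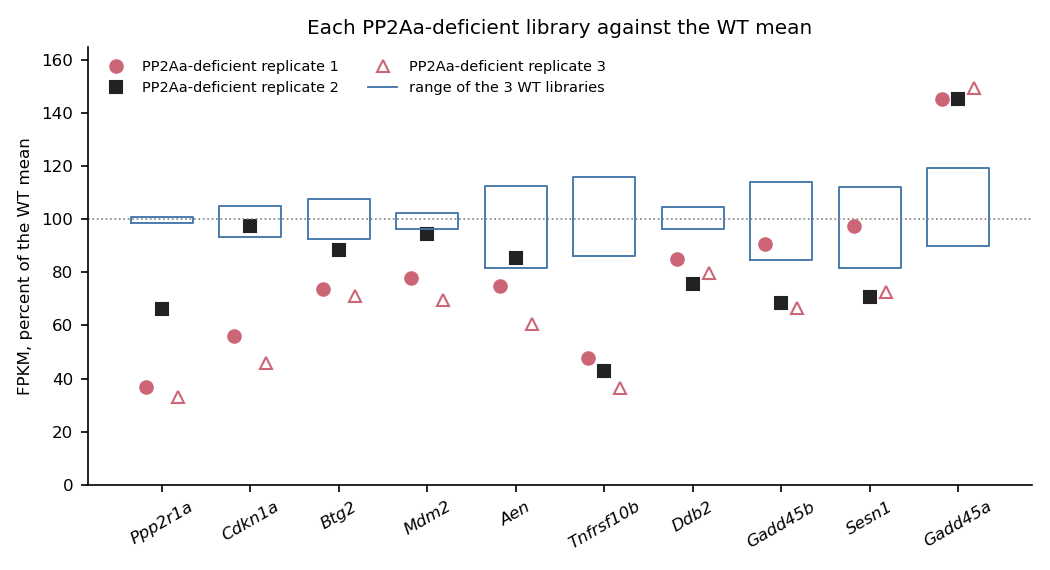
FPKM of each PP2Aa-deficient library as percent of the WT mean, for Ppp2r1a and 9 members, with a box for the range of the 3 WT libraries. Replicate 2 (black square) is highest of the 3 in Ppp2r1a (66.2%), Cdkn1a (97.3%), Btg2, Mdm2 and Aen, lies between the others in Tnfrsf10b (42.8%), and is not the highest in Ddb2, Gadd45b, Sesn1 or Gadd45a.

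Other genes of the pathway, a list of 56 genes with a row, gave a single call. Of the 44 tested, 24 lay below WT (54.5%, against 51.1% of all tested genes) and 20 above, with a median log2 change of -0.03. The other p53 targets among them had 15 of 23 below WT (65.2%) and 8 above, with a median of -0.15. Other genes that control p53 had 4 of 8 below and 4 above. Sfn, the 14-3-3 sigma adaptor that p53 induces in epithelial cells to hold the cell in G2, fell from 35.4, 45.8 and 34.5 FPKM in WT libraries to 2.76, 3.68 and 2.27 (log2 change -3.34, SE 0.19; limma adjusted p = 0.000432). Cdkn1a, Mdm2 and Ccng1, targets in most cell types, had log2 changes of -0.63, -0.30 and 0.20 beside it. The difference between Sfn and these genes was not tested.

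Among the other targets, Casp6, an executioner caspase, measured 11.5, 15.8 and 10.3 FPKM in WT against 10.7, 7.26 and 7.46 in PP2Aa-deficient libraries (log2 change -0.51, SE 0.21; limma adjusted p = 0.501). Casp6 and Sfn were the 2 of the 44 genes with an unadjusted limma p under 0.05 (4.55%, against 9.47% of all tested genes). Bax, the pore-forming death effector, ran from 61.3 to 112 FPKM in WT and from 59.7 to 78.5 in PP2Aa-deficient libraries. The groups did not overlap in 6 of the 44 genes (13.6%, against 15.1% of all tested genes), lower for Sfn, Tnfaip8 and Usp7 and higher for Cd82, Atr and Wwp1. Tnfaip8 ran from 17.7 to 19.3 FPKM in WT and from 13.4 to 17.1 in PP2Aa-deficient libraries (log2 change -0.33; limma adjusted p = 0.537). Cd82, a tetraspanin, ran from 51.2 to 61.0 and from 62.3 to 73.6 FPKM (log2 change 0.22; limma adjusted p = 0.653). Ptp4a3, a phosphatase, and Ephx1, an epoxide hydrolase, had overlapping groups with log2 changes of 0.27 and -0.33.

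No activator of p53 passed the test, and of the 13 tested 5 lay below WT (38.5%, against 51.1% of all tested genes) and 8 above. Atr, the kinase of stalled replication forks, measured 2.32, 2.12 and 1.88 FPKM in WT against 3.36, 2.48 and 2.96 in PP2Aa-deficient libraries, which did not overlap (log2 change 0.34, SE 0.19; limma adjusted p = 0.64). Atm, the kinase of double-strand breaks, had a log2 change of 0.13 (SE 0.24). Ppp2r5c, the B56 gamma subunit that directs PP2A to p53, ran from 35.4 to 43.97 FPKM in WT and from 32.7 to 40.4 in PP2Aa-deficient libraries, at a log2 change of -0.03 (95% interval -0.36 to 0.31). Cdkn2a, the locus of the Mdm2 inhibitor ARF, was listed at 0 in every library.

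Other sets of genes differed in level between the libraries too. Immediate early genes, to which Btg2, Gadd45b and Plk2 are often counted and which handling of cells can raise, summed to 3049 to 3678 FPKM in WT against 2755 to 3608 in PP2Aa-deficient libraries over 16 genes, with 11 of 16 below WT (51.1% of all tested genes were). At an unadjusted limma p under 0.05, 4 of the 16 were lower and 1 higher, against 4.41% and 5.06% of all tested genes. Plasma cell markers summed to 1335 to 2063 FPKM in WT against 722 to 986 in PP2Aa-deficient libraries, with all 8 tested below WT and 5 of them lower at an unadjusted limma p under 0.05. Igj, 1 of these 5, ran from 792 to 1167 FPKM in WT and from 186 to 461 in PP2Aa-deficient libraries. Irf4, Mzb1 and Prdm1, which did not reach such a p, had log2 changes of -0.11, -0.10 and -0.18. Macrophage markers summed to 193 to 368 and 110 to 169 FPKM, most of it Apoe, with 6 of 8 tested below WT and 2 lower at such a p. T cell markers summed to 19.4 to 35.9 and 17.7 to 25.6 FPKM, most of it Lck. Natural killer and neutrophil markers summed to at most 9.56 and 5.75 FPKM in any library, with the neutrophil genes Elane and Camp listed at 0 in all. Erythroid markers summed to 31.8 FPKM in deficient replicate 3 alone. They summed to 2.85 and 0.286 FPKM in deficient replicates 1 and 2 and to at most 3.25 in WT. Mast cell and eosinophil markers, nearly all Prg2, summed to 21.2 to 40.5 FPKM in WT against 5.66 to 14.6 in PP2Aa-deficient libraries, with Epx listed at 0 in all. Mesothelial and stromal markers did not exceed 0.226 FPKM in sum, with Msln, Col1a1 and Krt19 listed at 0 in all. The part of these sets in the values of the p53 targets was not tested.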

How the data were processed

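RNA of 3 WT and 3 PP2Aa-deficient B cell libraries was made into libraries by a low-input Smart-seq2 protocol, per the labels' protocols, and samples were grouped by the labels' source names. The authors deposited 1 table of FPKM values, 1 column per library, in Cuffnorm's layout. Cuffnorm, Cufflinks 2.2.1, TopHat2 2.0.10 and BWA appear in the submitters' processing notes. Not given in the sources used here are the genome build, annotation, strand and scaling between libraries. Of 22815 rows, 27 with dates for names were left out. The deposited plate sheet was not used. Its words for the wells (miRNA control and miRNA target) differ from the labelled genotypes, by which the samples were grouped.

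Genes with at least 1 FPKM in at least 3 libraries (9425) were tested as log2(FPKM + 1) with limma 3.58.1 in R 4.3.3 (two-sided, mean-variance trend, no covariate) with Benjamini-Hochberg adjustment at 0.05. Log2 changes are on this scale, which understates changes of low genes. Tested on simulated data of 9425 genes for this comparison, the fit called 85% of 100 genes altered by log2 1. It called 100% of 100 altered by log2 2, and both sets were drawn from better expressed genes. The simulated noise was normal, with the fitted variance and equal in both groups, so these shares may not hold for the real libraries. There Ppp2r1a, at a log2 change of -1.18, had a limma adjusted p of 0.168. FPKM does not hold depth, so relative depth was taken from the most common ratio of low values between libraries, and fragments were scaled with GENCODE M21 transcript lengths, a build that may not be the authors'. They are approximate. Summaries used pandas 2.3.3 and numpy 2.4.6 in Python 3.11.15, and figures matplotlib 3.10.9.

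Every member was accounted for. Library values are given for Trp53, Cdkn1a and Mdm2, for members with an unadjusted p under 0.05 or groups that did not overlap, and for up to 3 members of smallest p per role. Further members were named after their values were seen. The members, their roles and the lists were chosen with earlier results of these data known. Alternatives were other pseudocounts, filters, scalings, variance models, a term for Xist and leaving out each library. One marker gene and the summed level that includes it are not reported here.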

Additional observations from a re-analysis of the deposited data

How the results depend on the processing

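Under 15 alternatives 0 p53 members passed over all genes. Tnfrsf10b lay below WT with a limma p under 0.05 before adjustment in all 15 (log2 change -1.21 to -0.88, adjusted p from 0.0835 to 0.482), Cdkn1a was lower in 15 with such a p in 11 (-0.92 to -0.41), Btg2 was lower in 15 with such a p in 11, Gadd45b was lower in 15 with such a p in 9, and Gadd45a was higher in 15 with such a p in 12. Over all genes, where 0 were called higher and 3 lower, 1 was higher without a filter, 3 when genes had to reach 5 FPKM, 7 with quantile normalization, 4 without a mean-variance trend and 11 with array weights, and 5 were lower under each of the last 2. Leaving out 1 library gave 0 to 4 higher and 1 to 12 lower genes. With a term for Xist, 2 members were higher at an unadjusted p under 0.05, against 1. Leaving out 1 library gave 0 to 2 such members higher and 1 to 4 lower, with 2 lower without WT replicate 3 and 1 without PP2Aa-deficient replicate 3, and a median log2 change of the members of -0.16 to -0.027 (the ends without WT replicates 1 and 3). Trp53 ran from -0.11 without WT replicate 1 to 0.0188 without WT replicate 3, and Xpc turned to 0.0728 without WT replicate 3 and 0.0227 without PP2Aa-deficient replicate 3. Ppp2r1a passed over all genes without PP2Aa-deficient replicate 2 (adjusted p = 0.00555). The cause of these differences was not tested. No paired analysis was possible because the labels give no replicate numbers. Depth limits members of a few FPKM, which rest on few fragments.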
